A study of Mus musculus with 8 samples.

Results

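The 68 genes described here make up the core of the Wnt pathway in a table of 21899 mouse genes. They were picked by a list of gene names, which holds the genes for Wnt ligands, Frizzled and other receptors, R-spondins, secreted antagonists, Dishevelled, the beta-catenin destruction scaffold and the TCF/LEF transcription factors. RNA came from mesenchymal stem cells of mouse femur marrow, the adherent stromal cells from which bone, fat and cartilage cells can form. The EA group had 4 libraries from cells kept for 48 h in 10 µM ellagic acid, a plant polyphenol, and the Control group had 4 libraries from cells given the solvent DMSO for the same time. All groups were of poly(A) RNA, and the comparison asks which transcripts differed after this exposure. The labels give no mouse strain, genotype, age or passage. Nothing in them ties a library to an animal or a culture of its own, and the p-values therefore reflect a spread between libraries that may be technical.

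Wnt ligands are secreted lipid-modified proteins. In the beta-catenin branch a ligand joins a Frizzled receptor to the co-receptor LRP5 or LRP6, Dishevelled is recruited, and the scaffold of Axin, APC and kinases no longer marks beta-catenin for destruction. Beta-catenin then acts in the nucleus with TCF/LEF factors, among whose targets are feedback inhibitors such as Axin2. In marrow stroma this branch is known for favouring bone over fat formation, whereas ligands such as Wnt5a act largely through ROR receptors and other routes that do not need beta-catenin.

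Libraries held 14112519 to 17390200 reads on genes, of which the 68 genes took 0.261 to 0.299% in Control and 0.353 to 0.359% in EA. Few genes weigh heavily in this share. Over the 4 libraries of a group Lrp5 had 14479 reads in Control and 51589 in EA. The beta-catenin gene Ctnnb1 had 22573 and 50965. Other members went both ways, and Rspo2 had 23155 and 8165. Levels below are CPM, read counts brought to a common library size with TMM factors for library composition. TMM factors lay between 1.13 and 1.14 for Control and between 0.878 and 0.885 for EA, and with library totals alone the median log2 fold change over the tested genes shifted by −0.36. Directions that change with that scaling are given with the gene. Of the stromal markers, Col1a1 and Pdgfrb were abundant, at a mean of 968 and 39.3 FPKM in Control, but Thy1, which encodes the stromal marker CD90, was at only 0.0652 FPKM in Control and 0.0381 in EA. The markers Eng (CD105) and Nt5e (CD73) were also low, at 0.606 and 0.579 FPKM in Control. Of 14 stromal markers 13 were tested, 7 of them higher and 3 lower. The 3 lower ones were Ly6a (2.82-fold), Prrx1 (1.51-fold) and Vcam1 (1.49-fold). Among all tested genes 33.1% were higher and 34.2% lower, the background for this count and the marker counts below. The pan-leukocyte gene Ptprc was at 0.0141 FPKM in Control and 0.0144 in EA, and the endothelial gene Pecam1 at 0.0619 and 0.0651. Summed over 10 blood and macrophage markers, of which 4 were tested, 2 higher and 1 lower, Control libraries had 297 to 330 CPM of library totals and EA libraries 254 to 268. Cd34 made up most of this sum, and by TMM scaling it was higher, at a mean of 205 CPM in Control and 235 in EA. By the same scaling Lyz2 was higher (34.3 and 51.0 CPM) and Cd14 lower (34.0 and 9.64 CPM). Summed over 6 mature osteoblast markers, of which 3 rose and 2 fell among 5 tested, Control had 19.5 to 30.005 CPM and EA 35.7 to 49.4. Endothelial markers summed to 2.65 to 5.25 CPM in Control and 1.78 to 2.56 in EA, adipocyte markers to 4.13 to 7.93 and 5.19 to 8.93, and epithelial markers to 1.14 to 2.05 and 1.499 to 2.53. No listed marker was at 0 in every library. The part of these shifts in the results below was not tested. Control library 4 stood farthest from its group, with a chi-square per degree of freedom of 8.38 to 16.8 against the other Control libraries, which differed from each other by 5.50 to 6.03. EA library 4 also stood apart, at 6.66 to 7.74 beside 2.80 to 5.39 among the other EA libraries.

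With ellagic acid Wnt transcripts went both ways, as did those of all tested genes. Lrp5, Porcn, Ctnnb1, Wnt10b, Tcf7l1 and the low-expressed genes Lef1, Wnt11 and Tcf7 were higher, and Wnt5a, Fzd4, Fzd5 and Rspo2 were lower. Of the 68 genes 37 had enough reads to be tested, 23 of these were higher and 9 lower, and 5 did not pass the threshold, an adjusted p of 0.05 (quasi-likelihood F test of edgeR, Benjamini-Hochberg over 11777 genes). In all tested genes 67.2% were called, 33.1% higher and 34.2% lower, beside 86.5% of the 37 members. The median log2 fold change of the 37 was 0.46, and of all tested genes −0.02. Genes were tested where 4 or more libraries reached 0.647 CPM. Wnt11, Fzd9, Lef1 and Tcf7 did so in all 4 EA libraries but not in all Control libraries, of which 0 reached it for Wnt11, 1 each for Fzd9 and Tcf7, and 3 for Lef1. Genes that are tested through 1 group are apt to differ, and the counts describe the tested members only. With library totals alone 18 members were higher and 14 lower, a share of 56.2% higher among those called in place of 71.9%. Over all tested genes that scaling gave 1940 higher and 7196 lower, in place of 3893 and 4027. In these bulk samples fewer cells of a type and less RNA per cell cannot be told apart. Without Control library 4 the counts were 24 higher and 9 lower, and without EA library 4 they were 23 and 9.

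**Figure D1:**
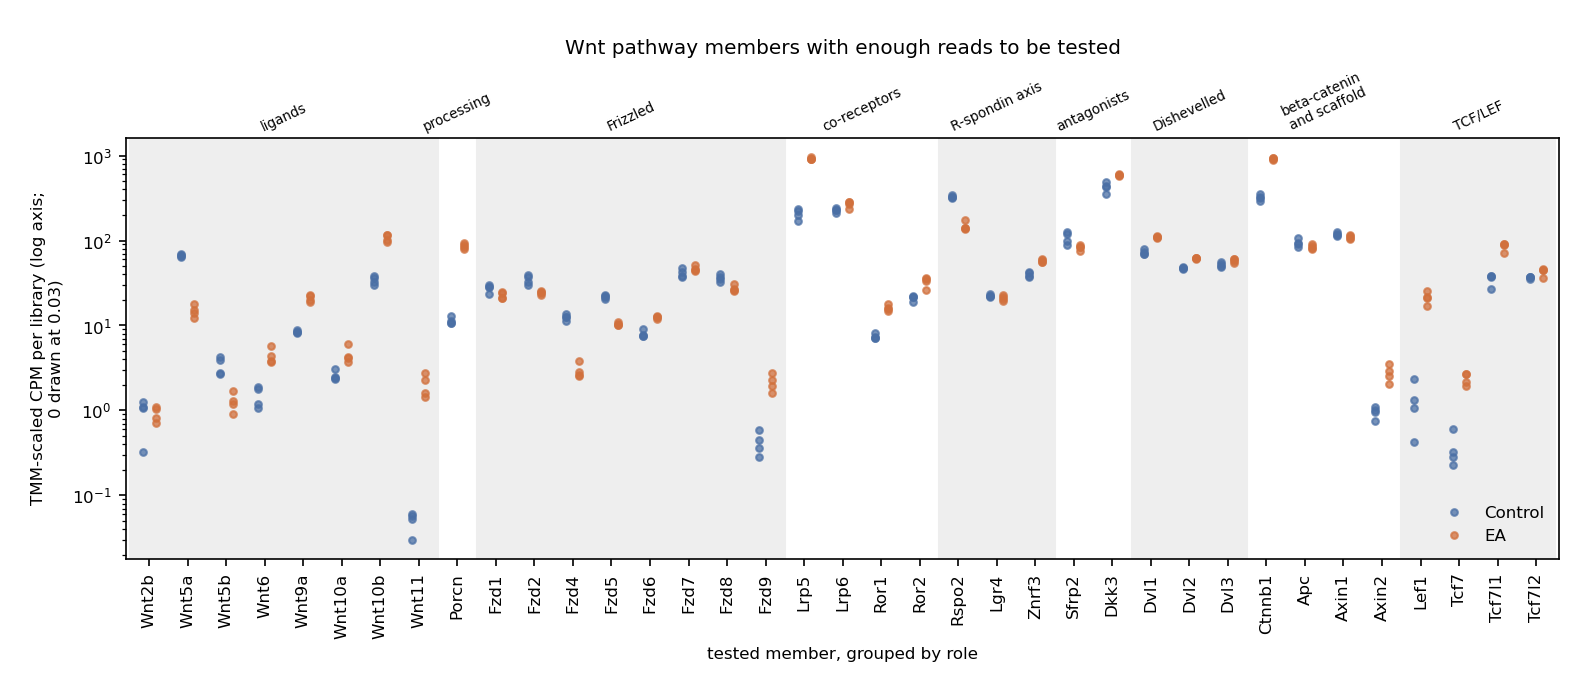
TMM-scaled CPM (log axis) of each of the 37 tested members, grouped by role, with 1 point for each of the 4 Control and 4 EA libraries. The groups are apart for 27 members, among them Wnt5a and Rspo2 with EA below Control and Porcn, Lrp5, Ctnnb1 and Lef1 with EA above it, and a value of 0 is drawn near the lower edge.

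Between them, 27 of the 37 members had no overlap of the 2 groups in CPM, as had 60.6% of all tested genes. A called change of at least 1 on the log2 scale was seen for 18 members, and for 17.7% of all tested genes.

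Ligand genes had 5 of 8 tested members higher, 2 lower and 1 not past the threshold, beside 33.1% higher and 34.2% lower among all tested genes, which also went both ways. Wnt10b, a beta-catenin branch ligand known for promoting bone formation (chromosome 15, 98668593 to 98676031, build GRCm39), had 38.5, 32.6, 35.9 and 29.9 CPM in the Control libraries and 96.5, 102, 115 and 117 in the EA libraries. Every EA library was well above every Control library, and the gene rose 3.15-fold (log2 fold change 1.66 ± 0.08 SE, adjusted p = 4.05e-13, edgeR). Wnt5a (chromosome 14, 28226707 to 28249405), the best known ligand of the branch without beta-catenin, had 69.2, 64.3, 65.3 and 68.5 CPM in Control and 12.3, 15.2, 13.97 and 18.0 in EA. It was low in all EA libraries with no overlap, and fell by 2.17 on the log2 scale (SE 0.09, adjusted p = 1.93e-14, edgeR). Its close relative Wnt5b was at 4.24, 3.97, 2.71 and 2.77 CPM in Control and 1.29, 1.18, 0.910 and 1.71 in EA. The groups did not overlap and Wnt5b was 2.69-fold lower (adjusted p = 6.17e-05, edgeR). Wnt5b overlaps Fbxl14 on the other strand by 2963 bases, and since the strand setting of the counting is not given, reads of Fbxl14 (1847 in Control and 1346 in EA) cannot be told apart from those of Wnt5b there.

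Wnt9a, which takes part in joint and skeletal development, had 8.83, 8.42, 8.25 and 8.36 CPM in Control and 22.3, 18.98, 20.2 and 23.0 in EA. All EA libraries were higher, by 2.49-fold in the fit (adjusted p = 5.22e-10, edgeR). Wnt6 was scarcer, at 1.78, 1.20, 1.86 and 1.07 CPM in Control and 5.70, 4.34, 3.83 and 3.70 in EA, again without overlap (2.95-fold higher, adjusted p = 7.22e-06). Wnt10a lies 6194 bases from Wnt6 on chromosome 1, on the same strand, and rose 1.78-fold from a mean of 2.56 ± 0.327 to 4.53 ± 1.04 CPM (SD, n = 4, adjusted p = 0.00114 from edgeR). Both genes of this pair were thus higher. In the pairs Wnt10b with Wnt1 (11707 bases apart) and Wnt9a with Wnt3a (16176 bases apart) 1 partner was expressed, while Wnt1 had 2 reads in Control and 13 in EA and Wnt3a had none.

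Wnt11, which acts mainly in cell movement and polarity, was close to absent in Control. Its 4 Control libraries had 0.0573, 0.0601, 0 and 0.0533 CPM, 3 reads in all, and the EA libraries 1.45, 1.62, 2.79 and 2.28 CPM, 115 reads in all. All EA libraries were higher, and the ratio of summed reads was 48.7, with a 95% exact interval of 16.3 to 239.8 for counting error only (edgeR adjusted p = 2.18e-08). The level in EA remained low, and on log2(FPKM + 1) values the difference was 0.50. Wnt2b had a mean of 0.936 ± 0.420 CPM in Control and 0.917 ± 0.188 in EA, and the groups overlapped (adjusted p = 0.979, edgeR).

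Wnt11 and Wnt5b, the first far higher and the second lower with EA, were the 2 members whose RefSeq promoter windows hold the TCF/LEF core CTTTGAT on either strand. Both stretches are shown because the same letters stand before genes that went opposite ways. Each is the 250 bases before a start site in build GRCm38.p6, chr7:98834862-98835111 on the plus strand for Wnt11 and chr6:119449387-119449636 on the minus strand for Wnt5b, with the core, or its reverse complement ATCAAAG, in capitals.
Wnt11: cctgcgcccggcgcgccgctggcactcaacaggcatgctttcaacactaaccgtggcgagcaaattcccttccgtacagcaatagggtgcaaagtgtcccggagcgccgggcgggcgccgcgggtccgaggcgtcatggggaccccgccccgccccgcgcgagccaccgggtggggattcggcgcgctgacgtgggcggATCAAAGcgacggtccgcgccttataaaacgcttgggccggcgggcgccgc
Wnt5b: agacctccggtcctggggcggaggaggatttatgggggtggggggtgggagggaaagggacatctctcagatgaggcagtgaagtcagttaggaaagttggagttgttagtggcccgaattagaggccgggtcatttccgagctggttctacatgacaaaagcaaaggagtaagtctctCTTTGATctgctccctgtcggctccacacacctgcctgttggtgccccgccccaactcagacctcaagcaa
Counted from the start site, the match of Wnt11 begins at position −51 and that of Wnt5b at −71. RefSeq lists 2 windows for Wnt11 and 3 for Wnt5b, and windows were at hand for 45 of the 68 genes, 55 windows in all. The core was in 3.64% of these windows and in 3.73% of all 32851 windows, each 250 bases before and 50 after a start. A match describes letters and is not a binding site.

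On the per-length FPKM scale, on which genes can be compared within a library, the 19 ligand genes summed to 27.7 ± 1.90 FPKM in the Control libraries and to 39.9 ± 2.91 in the EA libraries (SD, n = 4). Wnt10b made up 42.5, 40.4, 42.6 and 38.6% of that sum in the Control libraries and 67.5, 70.4, 71.4 and 70.8% in the EA libraries. Wnt5a made up 33.2, 34.7, 33.7 and 38.5% in Control and 3.74, 4.56, 3.76 and 4.73% in EA. The ratio of Wnt10b to Wnt5a FPKM, which does not depend on how libraries are scaled, was 1.004 to 1.28 in Control and 15.0 to 18.99 in EA. Control libraries thus held the pair at nearly equal levels, while in EA Wnt10b was the main ligand transcript.

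**Figure D2:**
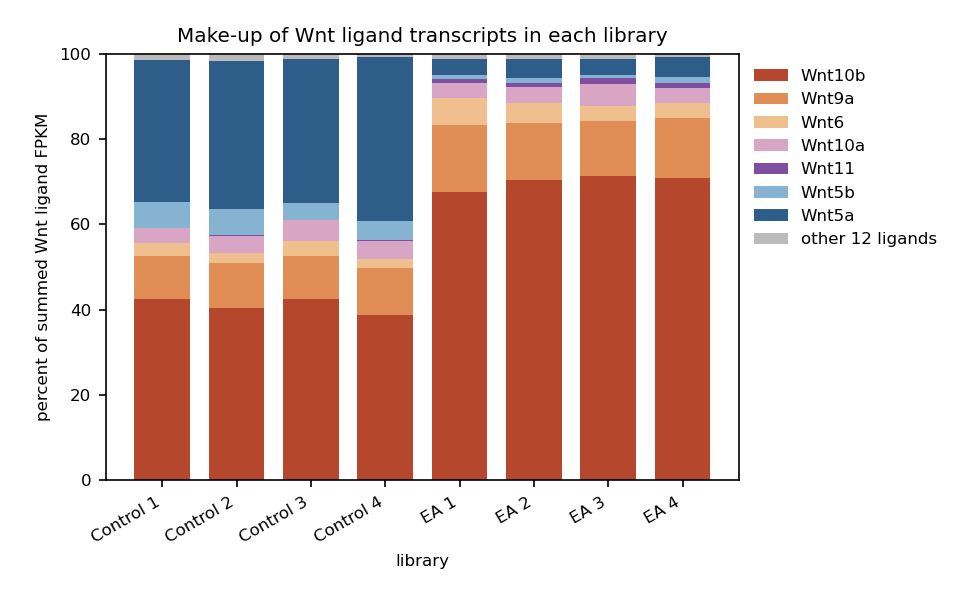
Share of each ligand gene in the summed Wnt ligand FPKM (percent, vertical axis) for each of the 8 libraries. Wnt10b takes 38.6 to 42.6% of a Control bar and 67.5 to 71.4% of an EA bar, and Wnt5a 33.2 to 38.5% and 3.74 to 4.73%.

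Of the 11 ligand genes not tested, Wnt3a, Wnt8a and Wnt9b had no read in any library. Wnt4 had 12 reads in Control and 9 in EA, and Wnt8b had 2 and 11. The others, Wnt2, Wnt3, Wnt7a, Wnt7b and Wnt16, had between 1 and 8 reads in all libraries together. Without the count filter Wnt1 passed the threshold (log2 fold change 2.73, adjusted p = 0.0349, edgeR) and the other untested ligands did not.

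Porcn, which encodes the acyltransferase that every Wnt ligand needs to become active and leave the cell (chromosome X, 8060087 to 8072764), had the smallest adjusted p of the members. Its libraries had 10.6, 12.8, 10.6 and 11.3 CPM in Control and 87.5, 83.8, 78.6 and 94.4 in EA. The EA libraries were all several times above the highest Control library, and the fitted rise was 7.60-fold (log2 fold change 2.93 ± 0.08 SE, adjusted p = 4.08e-17, edgeR). Porcn went from rank 23 to rank 8 of the 68 genes by mean FPKM. Notum, a secreted enzyme that removes the lipid from Wnt ligands, had 3 Control reads and 7 EA reads and was not tested.

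Frizzled genes, which encode the seven-pass receptors of Wnt ligands, had 5 of 8 tested members lower, 2 higher and 1 not past the threshold, beside 34.2% lower and 33.1% higher among all tested genes. Fzd4, also the receptor of norrin in blood vessels, had 11.3, 13.7, 12.4 and 12.7 CPM in Control and 3.86, 2.57, 2.86 and 2.63 in EA. The groups were far apart and Fzd4 was 4.22-fold lower (log2 fold change −2.08 ± 0.15 SE, adjusted p = 1.35e-10, edgeR). Fzd5 had 21.5, 20.6, 22.7 and 22.3 CPM in Control and 10.04, 10.2, 10.4 and 11.02 in EA. It was about halved in each EA library, with a 2.09-fold fall in the fit (adjusted p = 4.25e-09, edgeR). Smaller falls were those of Fzd2 (1.41-fold, from 34.5 ± 4.19 to 24.4 ± 1.04 CPM), Fzd8 (1.33-fold) and Fzd1 (1.21-fold, adjusted p = 0.0113, groups overlapping).

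Of the Frizzled genes that rose, Fzd9, a receptor linked to bone formation in mice, was scarce, at 0.287, 0.361, 0.452 and 0.586 CPM in Control and 1.61, 1.91, 2.73 and 2.28 in EA. All EA libraries were higher, and from 30 Control reads and 120 EA reads the ratio was 5.09 (95% exact interval 3.39 to 7.86). On log2(FPKM + 1) values this rise was only 0.59. Fzd6, which acts in planar polarity, rose 1.56-fold, from 7.95 ± 0.723 to 12.4 ± 0.444 CPM (adjusted p = 5.09e-05, edgeR). Fzd7, the most abundant Frizzled in EA on the FPKM scale, had 41.6 ± 4.55 CPM in Control and 46.1 ± 3.44 in EA (adjusted p = 0.116), and with library totals its sign turned (log2 fold change −0.21, adjusted p = 0.0206). Without Control library 1 it was higher (log2 fold change 0.22, adjusted p = 0.0212). Fzd3 and Fzd10 had no reads. Within the summed Frizzled FPKM the share of Fzd7 was 21.4 to 26.3% in Control and 30.3 to 33.8% in EA, and that of Fzd4 was 4.11 to 5.55% and 1.174 to 1.78%.

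Lrp5 and Lrp6 encode the 2 co-receptors of the beta-catenin branch, and human loss of LRP5 is known to lower bone mass. Lrp5 (chromosome 19, 3634828 to 3736564) had 221, 201, 234 and 168 CPM in Control and 914, 923, 921 and 959 in EA. The EA libraries were tightly grouped far above Control, a 4.52-fold rise (log2 fold change 2.18 ± 0.08 SE, adjusted p = 1.15e-13, edgeR). Lrp6 had 227, 210, 227 and 241 CPM in Control and 280, 287, 266 and 232 in EA. Here the groups overlapped, the rise was 1.18-fold (adjusted p = 0.00346, edgeR), and with library totals the direction turned without passing the threshold (log2 fold change −0.13, adjusted p = 0.0796). The FPKM ratio of Lrp5 to Lrp6 was 0.978 to 1.45 in Control libraries and 4.52 to 5.80 in EA libraries, whatever the scaling. In Control the 2 co-receptor transcripts were thus at similar levels and in EA Lrp5 was the more abundant.

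The ROR genes encode receptor kinases that bind Wnt5a. Ror1 had 8.14, 7.21, 7.34 and 7.09 CPM in Control and 16.2, 18.0, 15.6 and 14.6 in EA, with all EA libraries higher (2.16-fold, adjusted p = 2.58e-08, edgeR). Ror2 rose 1.56-fold, from 21.1 ± 1.56 to 32.9 ± 4.84 CPM (adjusted p = 1.20e-05, edgeR). Both receptor genes were thus higher in the libraries in which Wnt5a was lower.

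R-spondins are secreted proteins that strengthen Wnt signalling. They bind LGR receptors and draw away the ubiquitin ligases ZNRF3 and RNF43, which remove Frizzled from the cell surface. Rspo2 (chromosome 15, 42884190 to 43034222) had 339, 326, 327 and 321 CPM in Control and 140, 140, 136 and 173 in EA. It was lower in every EA library, with EA library 4 above the other 3, and fell 2.23-fold (log2 fold change −1.16 ± 0.07 SE, adjusted p = 4.93e-12, edgeR). Rspo2 was the second most abundant member by FPKM in Control (72.8 ± 1.72) and the seventh in EA (25.4 ± 2.92). Its receptor gene Lgr4 had 22.3 ± 0.635 CPM in Control and 21.1 ± 1.33 in EA, did not pass the threshold (adjusted p = 0.442, edgeR) and was lower with library totals (log2 fold change −0.44, adjusted p = 0.000101).

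Znrf3 rose 1.44-fold, from 40.001 ± 2.33 to 57.7 ± 2.86 CPM (adjusted p = 1.04e-06, edgeR), a rise that on log2(FPKM + 0.1) values missed the threshold (adjusted p = 0.0507). The FPKM ratio of Rspo2 to Znrf3 was 11.7 to 13.6 in Control and 3.52 to 4.83 in EA. The related gene Rnf43 had 13 Control reads and 1 EA read. The ratio was 10.2, with a 95% exact interval of 1.54 to 435, and without the count filter it missed the threshold (adjusted p = 0.0529, edgeR). Rspo1 had no reads, Rspo3 had 7 and 1, Rspo4 had 17 and 34 and Lgr5 had 2 and 5 reads in Control and EA.

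Secreted antagonists were represented by Dkk3 and Sfrp2 in these cells. Dkk3, a divergent member of the Dickkopf family, was the most abundant of the 68 genes in Control at 145 ± 20.7 FPKM. It had 439, 428, 495 and 352 CPM in Control and 586, 579, 589 and 608 in EA. All EA libraries were higher by CPM, a 1.38-fold rise (adjusted p = 4.41e-05, edgeR) that library totals did not carry past the threshold (log2 fold change 0.10, adjusted p = 0.260). Sfrp2, whose product binds Wnt ligands outside the cell, had 120, 98.8, 126 and 87.5 CPM in Control and 75.9, 83.9, 87.5 and 84.0 in EA. Control libraries were on the whole higher, but EA library 3 met Control library 4, and the fall was 1.31-fold (adjusted p = 0.00282, edgeR). The ratio of Dkk3 to Sfrp2 FPKM was 2.34 to 2.77 in Control and 4.31 to 4.95 in EA.

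Wif1, which encodes another secreted protein that binds Wnt ligands, had 1 Control read and 56 EA reads. The ratio was 71.2, with a 95% exact interval of 12.3 to 2862. EA library 4, with 9 reads, was just short of the count filter, and without that filter Wif1 passed the threshold (log2 fold change 5.50, adjusted p = 3.12e-08, edgeR). The antagonists that block LRP5 and LRP6 were barely read, with Dkk1 at 0 reads in Control and 3 in EA, Dkk2 at 5 and 0, and Sost at 1 and 1. Dkk4 had no reads, and Sfrp1, Sfrp4, Sfrp5 and Dkkl1 had 2 to 13 reads over all libraries. Apcdd1, a membrane inhibitor, had 13 reads in Control and 7 in EA.

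The 3 Dishevelled genes, whose products pass the signal from Frizzled to the Axin scaffold, were slightly higher by TMM scaling. Of all tested genes 33.1% were called higher by the same scaling. Dvl1 had 80.3, 69.4, 69.1 and 73.6 CPM in Control and 110, 110, 113 and 106 in EA. No EA library fell within the Control range, and the rise was 1.501-fold (adjusted p = 5.83e-08, edgeR). Dvl2 rose 1.31-fold, from 47.6 ± 0.828 to 62.1 ± 0.754 CPM (adjusted p = 1.15e-05), and this was not past the threshold with library totals (log2 fold change 0.02, adjusted p = 0.741). Dvl3 rose 1.13-fold with overlapping groups (adjusted p = 0.0230), and with library totals it was lower (log2 fold change −0.18, adjusted p = 0.0185). Its rise missed the threshold without EA library 2 (adjusted p = 0.0654) and without EA library 4 (adjusted p = 0.0525). Dvl2 overlaps Acadvl on the other strand by 2119 bases. Acadvl was itself higher, with 2492 reads in Control and 2652 in EA beside 3356 and 3447 for Dvl2, and reads of the pair cannot be told apart there. Dvl1 overlaps Tas1r3 by 36 bases, and Tas1r3, also higher, had 93 and 163 reads. Nkd1 and Nkd2, which encode inhibitors of Dishevelled, had 3 and 4 reads in all.

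Ctnnb1 encodes beta-catenin itself, which also links cadherins to the actin cytoskeleton (chromosome 9, 120758282 to 120789573). It had 316, 328, 350 and 289 CPM in Control and 945, 907, 940 and 882 in EA. Each EA library exceeded each Control library, and the rise was 2.87-fold (log2 fold change 1.52 ± 0.06 SE, adjusted p = 5.84e-15, edgeR). In EA Ctnnb1 was the most abundant member by mean FPKM, at 156 ± 5.46 beside 155 ± 2.81 for Dkk3, a difference within their spread. Ctnnb1 overlaps Ulk4 on the other strand by 5157 bases, and Ulk4 had 290 reads in Control and 236 in EA.

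The scaffold genes Axin1 and Apc, which serve beta-catenin destruction, did not pass the threshold. Axin1 had 125, 120, 114 and 116 CPM in Control and 118, 114, 107 and 104 in EA, with overlapping groups (adjusted p = 0.122, edgeR). Apc had 94.4 ± 9.99 CPM in Control and 84.3 ± 4.87 in EA and narrowly missed the threshold (adjusted p = 0.0531, edgeR). With library totals both were lower, Axin1 by a log2 fold change of −0.47 and Apc by −0.53. Apc was also lower without Control library 1 (log2 fold change −0.20, adjusted p = 0.0192) and without EA library 1 (−0.19, adjusted p = 0.0467). The FPKM ratio of Ctnnb1 to Axin1 was 1.83 to 2.25 in Control and 5.89 to 6.49 in EA, and that of Ctnnb1 to Apc was 8.27 to 12.04 and 32.6 to 34.7.

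Axin2, the feedback inhibitor that beta-catenin and TCF/LEF factors induce, was rare. It had 1.09, 1.02, 0.960 and 0.746 CPM in Control and 3.53, 2.94, 2.53 and 2.06 in EA, from 67 reads in Control and 152 in EA. The groups did not overlap and the rise was 2.88-fold (log2 fold change 1.53 ± 0.27 SE, adjusted p = 4.52e-05, edgeR). On log2(FPKM + 1) values, which shrink differences of low genes, it was 0.27.

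All 4 TCF/LEF genes, which encode the DNA-binding partners of beta-catenin, were called higher, beside 33.1% of all tested genes. Tcf7l2 was so by TMM scaling and not by library totals. Lef1 and Tcf7 were tested through the EA group, since not all Control libraries reached the count filter. Lef1 (chromosome 3, 130904120 to 131018005) had 2.35, 0.421, 1.07 and 1.33 CPM in Control and 21.8, 20.9, 25.4 and 16.9 in EA. Control libraries were low and uneven and EA libraries all high, a 16.2-fold rise (log2 fold change 4.02 ± 0.27 SE, adjusted p = 1.02e-08, edgeR). The log2 fold change was 4.47 without Control library 1 and 3.75 without Control library 2, and 1.42 on log2(FPKM + 1) values. Tcf7, which encodes TCF1, had 0.229, 0.601, 0.282 and 0.320 CPM in Control and 1.93, 2.65, 2.66 and 2.13 in EA. The groups did not overlap. From 25 Control reads and 131 EA reads the ratio was 6.66 (95% exact interval 4.32 to 10.7), and on log2(FPKM + 1) values the rise was 0.57.

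Tcf7l1, which encodes TCF3, often a repressor, had 37.9, 38.4, 36.8 and 27.1 CPM in Control and 88.7, 90.3, 91.7 and 70.5 in EA. Library 4 was the lowest in both groups, the groups were apart, and the rise was 2.44-fold (adjusted p = 4.79e-08, edgeR). Tcf7l2, which encodes TCF4, had 36.7 ± 1.003 CPM in Control and 43.1 ± 4.27 in EA with overlapping groups (1.172-fold higher, adjusted p = 0.0134), and with library totals the sign turned (log2 fold change −0.13, adjusted p = 0.124). The FPKM ratio of Tcf7l1 to Tcf7l2 was 1.65 to 2.43 in Control and 4.35 to 4.61 in EA. Lef1 stayed below Tcf7l1 in EA, at 0.103 to 0.124 of its FPKM, from 0.00489 to 0.0277 in Control. Counts per gene do not separate the full-length forms of Lef1 and Tcf7 from short forms that cannot bind beta-catenin.

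The SMAD box repeat CAGACA, a short sequence bound by factors of TGF-beta signalling, was searched in the same promoter windows on both strands. It was found in 9.09% of the 55 member windows and in 21.0% of all windows, and the palindrome GTCTAGAC in none of the member windows and 0.213% of all. The windows also differed in base composition. Their median GC content was 70.0% for tested members, 63.0% for untested members and 52.7% for all windows. The part of this in the motif shares was not tested. Lef1 alone held the repeat at 2 places in 1 window, shown here as the 250 bases before a start, chr3:131156044-131156293 on the plus strand of GRCm38.p6, with the repeat and its reverse complement in capitals.
Lef1: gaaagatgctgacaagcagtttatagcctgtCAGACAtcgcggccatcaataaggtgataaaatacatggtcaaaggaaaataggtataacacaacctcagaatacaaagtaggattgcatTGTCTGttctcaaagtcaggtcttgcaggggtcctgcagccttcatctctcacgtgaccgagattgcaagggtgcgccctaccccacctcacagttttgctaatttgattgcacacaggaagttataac
The matches begin at positions −219 and −129 from the start. RefSeq lists 4 windows for Lef1, and these letters are a description of 1 of them. The position of the Lef1 gene given above is in GRCm39 and that of the window in GRCm38.p6. Whether this start is the first of the gene or lies inside it was not checked.

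**Figure D3:**
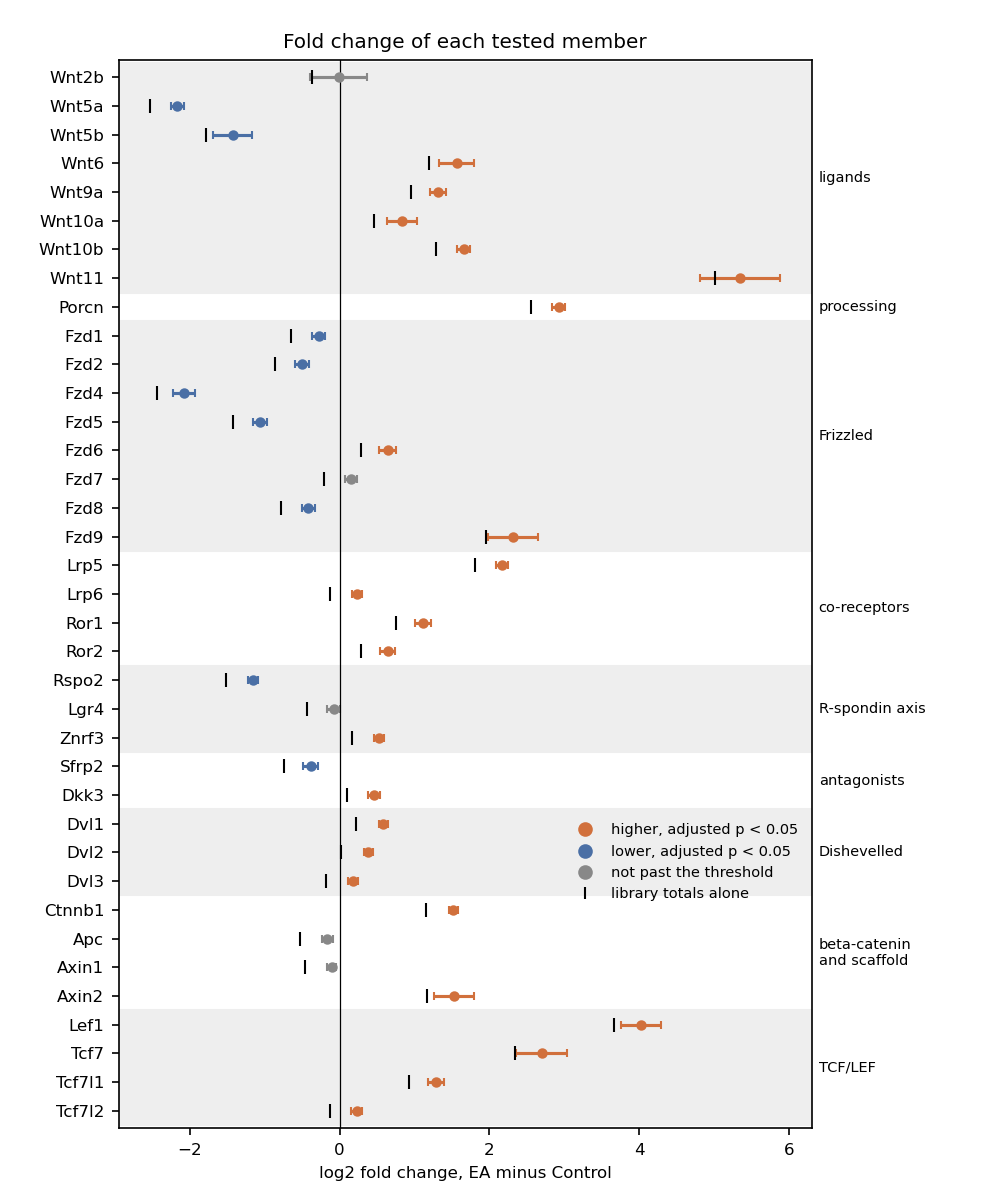
Log2 fold change of EA against Control for each tested member (points, with SE bars, by role from top to bottom), and the value with library totals alone (vertical ticks). Wnt5a at −2.17 and Fzd4 at −2.08 lie farthest to the left and Wnt11 at 5.35 and Lef1 at 4.02 farthest to the right, and the ticks of Lrp6, Fzd7, Dvl3 and Tcf7l2 cross 0.

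Of the 32 called members, 25 kept their direction and stayed past the threshold under each alternative in which they were tested. Of these, Axin2, Fzd9, Lef1, Tcf7, Wnt11 and Wnt5b were not tested under the filter of CPM above 1 in all libraries, which removed them. The exceptions were Dkk3, Dvl2, Dvl3, Lrp6 and Tcf7l2, which depended on the scaling, Znrf3, and Fzd1, which missed an adjusted p of 0.01. On log2(FPKM + 1) values, which shrink differences of low genes, the change of Fzd4 was −1.16, of Wnt5b −0.79, of Wnt6 0.65, of Ror1 0.49 and of Porcn 2.32.

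Summed by role on the FPKM scale, which divides by library totals, transcripts of co-receptors went from 49.8 ± 2.93 in Control to 110.7 ± 1.44 in EA (SD, n = 4). Ligand processing, nearly all Porcn, went from 4.30 ± 0.380 to 25.3 ± 1.86. The TCF/LEF factors went from 15.1 ± 1.57 to 26.3 ± 3.09, and beta-catenin with its scaffold from 112 ± 5.52 to 187 ± 6.78. The Frizzled receptors had a lower sum in EA, from 43.3 ± 2.63 to 28.5 ± 0.625. The sum of R-spondins with the receptors Lgr4 and Lgr5 and the ligases was also lower, from 83.0 ± 1.48 to 35.2 ± 2.80. This sum leaves out the receptor gene Lgr6, at a mean of 0.0900 FPKM in Control and 5.39 in EA. Lgr4 was at 4.29 FPKM in Control and 3.17 in EA. The sums of antagonists overlapped between groups, at 202 ± 29.8 in Control and 189 ± 3.87 in EA. Dkk3 made up 70.0 to 73.5% of the antagonist sum in Control and 80.8 to 83.0% in EA. Within it Dkk3 went from a mean of 145 to 155 FPKM and Sfrp2 from 57.0 to 33.9. Each sum is carried by 1 or a few genes, Rspo2 for the R-spondin axis, Lrp5 for the co-receptors and Ctnnb1 for beta-catenin with its scaffold. Ctnnb1 went from a mean of 70.0 FPKM in Control to 156 in EA, and Axin2 from 0.197 to 0.444. In contrast, Axin1 went from 35.2 to 25.5 and Apc from 6.64 to 4.62.

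**Figure D4:**
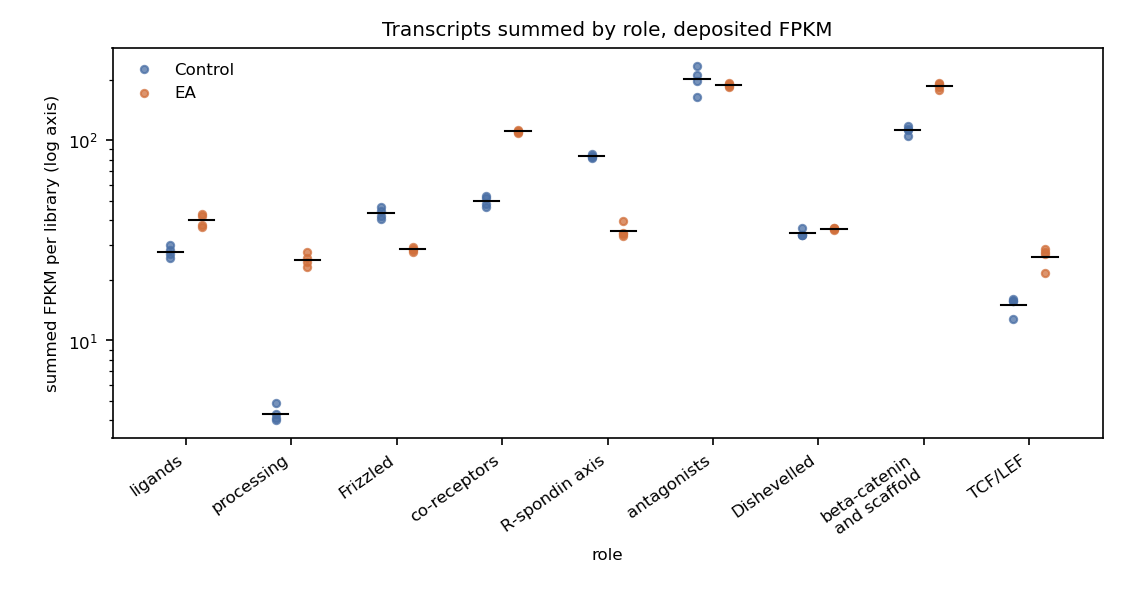
Deposited FPKM summed over all members of a role (log axis) in each library, with bars at the mean of 4 libraries. Lgr6 is not a member and is left out of the R-spondin axis. EA lies above Control for ligands, Porcn and Notum, co-receptors, beta-catenin with its scaffold (a rise carried by Ctnnb1) and TCF/LEF factors, below it for Frizzled receptors and the R-spondin axis, and overlaps it for antagonists and Dishevelled.

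Other genes of the pathway, from a list of 62 that does not hold the members, went both ways, with 21 of 50 tested genes higher, 14 lower and a median log2 fold change of 0.05. The share called, 70.0%, was near that of all genes. With library totals the counts were 13 higher and 31 lower. Lgr6, an R-spondin receptor gene related to Lgr4, rose 74.6-fold from 0.543 ± 0.324 to 41.8 ± 6.39 CPM. It had 39 reads in Control and 2307 in EA. Its Control mean was below the 0.647 CPM of the count filter, so that Lgr6 was tested through the EA group, and its fold is uncertain. The corepressor gene Tle1 rose 3.33-fold, Kremen1, whose product is a Dickkopf receptor, 2.34-fold, the beta-catenin cofactor gene Bcl9l 1.98-fold and the small GTPase gene Rac1 1.77-fold. Lower genes were Dact2 (2.99-fold), whose family binds Dishevelled, Amer1 (2.67-fold), an APC partner, and the polarity genes Scrib (1.48-fold), Invs (1.47-fold) and Ptk7 (1.34-fold), each past the threshold with edgeR. Wls, which carries Wnt ligands to the surface, rose 1.25-fold by TMM scaling and did not pass with library totals (log2 fold change −0.05), and was chosen after its value was seen.

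Target genes of beta-catenin and TCF/LEF factors outside the members, from a list of 25, had 13 of 20 tested genes higher and 4 lower, and 10 and 7 with library totals. The share called was 85.0%, beside 67.2% of all tested genes, and the median log2 fold change 0.51, beside −0.02. The list was drawn up with earlier results of these data known. Jun rose 3.26-fold, from 126 ± 6.81 to 412 ± 22.9 CPM. The matricellular gene Ccn4 rose 7.18-fold, the urokinase receptor gene Plaur 2.72-fold, the ephrin receptor gene Ephb3 2.45-fold and the cyclin gene Ccnd1 1.82-fold. Snai2, a transcription factor of mesenchymal cells, was 6.93-fold lower, from 76.5 ± 7.35 to 11.1 ± 1.58 CPM. Birc5, a gene of dividing cells, was 3.29-fold lower and Myc 1.95-fold lower. Tiam1 was 2.005-fold lower (adjusted p = 0.0391, edgeR), a call lost on leaving out any library but Control library 3 and EA library 4, with adjusted p up to 0.124. These genes also answer to many other signals.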

How the data were processed

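Poly(A) RNA of 8 libraries was sequenced. The deposited read counts per gene are raw counts made by the authors with cutadapt 1.15 and HISAT2 2.0.5 on GRCm39, per the submitters' processing notes. How reads were counted, and with which strand setting and annotation, is not given in the sources used here. Deposited FPKM values are the authors' counts per gene length and column total, which was checked by recomputing 117047 of them (largest relative deviation 5.11e-15).

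Counts were analysed with edgeR 4.0.16 in R 4.3.3 (TMM factors, default filter by group, robust quasi-likelihood F test, Benjamini-Hochberg over 11777 genes). The SE is the log2 fold change divided by the square root of F. Total counts were 14112519 to 17390200 per library. Alternatives were other factors and filters, DESeq2 1.42.0, limma 3.58.1 (voom, and log2 FPKM with pseudocounts of 1 and 0.1), a replicate block and leaving out each library. On simulated data with 200 changed genes edgeR recovered 188 and called 11 unchanged genes. The simulated share of changed genes was far below the 67.2% called here, so these figures do not give the error rate of the calls. Members and lists were chosen with earlier results of these data known. Values in all libraries are given for members changed by at least 1 (log2) and for the 10 highest by FPKM, and up to 5 genes per direction by p from the other lists. Promoter sequences are from RefSeq, GRCm38.p6. Intervals cover counting error only. Figures used matplotlib 3.10.9.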

Additional observations from a re-analysis of the deposited data

Results flagged for a closer look

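In 6 of 74 groups of 4 libraries 1 library of a tested member stood apart from the other 3 by a gap test on CPM, which chance does in about 1 in 20 groups. EA library 4 was apart for Rspo2, at 173 CPM beside 136 to 140 in the others, for Tcf7l1, at 70.5 beside 88.7 to 91.7, and for Tcf7l2, at 36.7 beside 44.6 to 45.9. Control library 4 was apart for Tcf7l1, at 27.1 CPM beside 36.8 to 38.4. Control library 3 was apart for Wnt10a, at 3.05 CPM beside 2.34 to 2.45, and for Wnt11, at 0 CPM beside 0.0533 to 0.0601, which is a difference of 1 read.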

How the results depend on the processing

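Library totals gave 1940 genes higher and 7196 lower in all, limma on log2(FPKM + 1) 1924 and 7170, and on log2(FPKM + 0.1) 1922 and 7179. Members that were lower numbered 14 under each of these 3, other pathway genes 13 higher and 31 lower, and target genes 7 lower. Upper-quartile factors gave 22 other pathway genes lower. The median log2 fold change of the tested members, 0.46, was 0.30 with upper-quartile factors, 0.10 with library totals, 0.30 with CPM above 1 in all libraries, and 0.11 with each FPKM setting. Leaving out 1 library gave 0.47 to 0.55. Signs turned with library totals, log2(FPKM + 1) and log2(FPKM + 0.1) for Dvl3 (−0.18, −0.16 and −0.18), Fzd7 (−0.21, −0.19 and −0.21), Lrp6 (−0.13, −0.12 and −0.13) and Tcf7l2 (−0.13, −0.11 and −0.14). FPKM with a pseudocount of 1 also shrank low genes by its construction. The replicate numbers showed no sign of pairing the samples. Same-numbered libraries correlated at −0.04 to 0.04 and the other pairs at −0.13 to 0.15, which cannot settle whether they were paired. With the replicate block 23 members were higher and 9 lower, as without it. Members with few reads are limited by depth.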
